A study of Mus musculus with 6 samples.

Results

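The genes described here are the organic ion transporters of the mouse kidney cortex, the solute carrier families SLC22 and SLCO. They are all genes whose symbol is Slc22a or Slco followed by a member number, which picked 39 of the 31053 genes in the files, 25 Slc22a and 14 Slco genes. RNA was counted in single nuclei of kidney cortex from FVB/N mice, with 3 libraries in each of 2 groups. Controls carried Klf4 fl/fl, and knockouts carried Podocin-Cre Klf4 fl/fl, in which a Cre driven by the podocin promoter removes the transcription factor Klf4 from podocytes. Both groups therefore carried the floxed allele, and no control with the Cre alone was used here. The labels give neither age nor sex, and the tubule cells described below were not the target of the Cre.

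SLC22 proteins carry organic anions, organic cations and zwitterions such as carnitine across cell membranes. SLCO proteins, also called OATPs, carry larger organic anions such as bile acids, steroid conjugates, thyroid hormone and prostaglandins. In the kidney the proximal tubule uses them to take drugs, toxins and metabolites from the blood and to secrete or reclaim them. The tubule runs from S1, next to the glomerulus, through S2 to S3, and several of the rodent transporters are known to differ between these segments and between the sexes.

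The Slc22a members lie largely in groups of neighbouring genes. By the GENCODE M21 annotation of GRCm38, 10 of them are on chromosome 19, and 8 of those lie within positions 7673061 to 8628299 in the order Slc22a19, Slc22a26, Slc22a27, Slc22a28, Slc22a29, Slc22a30, Slc22a8 and Slc22a6. Slc22a4, Slc22a21 and Slc22a5 are neighbours on chromosome 11, Slc22a2 and Slc22a3 on chromosome 17, and 6 Slco1 genes on chromosome 6. The 250 bases before the annotated start of 4 chromosome 19 members are shown because the first pair was lower and the second pair higher on average in the knockout libraries. Slc22a6 and Slc22a8 encode the organic anion transporters OAT1 and OAT3, and Slc22a28 and Slc22a30 are rodent relatives of them. The sequences are from RefSeq on GRCm38.p6, 5′ to 3′ on the strand of the gene. Capitals mark GTTAAT, a half-site of the factor HNF1, and CAAAGT, a half-site of the factor HNF4, each searched on both strands, so that ACTTTG is a CAAAGT on the other strand.
Slc22a6: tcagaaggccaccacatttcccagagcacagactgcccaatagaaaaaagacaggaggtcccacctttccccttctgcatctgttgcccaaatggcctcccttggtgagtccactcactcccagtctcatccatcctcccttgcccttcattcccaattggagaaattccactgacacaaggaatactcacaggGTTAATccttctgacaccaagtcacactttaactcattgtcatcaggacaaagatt
Slc22a8: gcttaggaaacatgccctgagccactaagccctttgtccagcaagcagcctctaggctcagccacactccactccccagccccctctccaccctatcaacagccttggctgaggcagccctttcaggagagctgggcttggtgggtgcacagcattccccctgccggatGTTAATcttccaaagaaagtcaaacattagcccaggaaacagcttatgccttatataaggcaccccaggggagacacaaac
Slc22a28: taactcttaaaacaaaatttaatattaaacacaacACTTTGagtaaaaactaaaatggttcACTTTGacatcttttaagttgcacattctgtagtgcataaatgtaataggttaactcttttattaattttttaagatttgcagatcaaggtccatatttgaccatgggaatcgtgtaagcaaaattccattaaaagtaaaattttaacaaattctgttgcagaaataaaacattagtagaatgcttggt
Slc22a30: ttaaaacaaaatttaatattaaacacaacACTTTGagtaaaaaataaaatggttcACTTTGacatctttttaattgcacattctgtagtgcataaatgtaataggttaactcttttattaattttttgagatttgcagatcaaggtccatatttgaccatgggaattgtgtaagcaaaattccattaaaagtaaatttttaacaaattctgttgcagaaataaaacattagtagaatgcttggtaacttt
The windows are chr19:8617746-8617995 and chr19:8592932-8593181 on the plus strand, and chr19:8131983-8132232 and chr19:8405106-8405355 on the minus strand. Both OAT genes held 1 GTTAAT, starting 56 and 81 bases before the start of Slc22a6 and Slc22a8, and neither held CAAAGT. Slc22a28 and Slc22a30 each held CAAAGT on the other strand in 2 places, 215 and 189 bases and 221 and 195 bases before the start. Among all 32851 promoters of this length in the table, 6.43% held GTTAAT and 12.6% held CAAAGT. Of the 34 members in the table, 4 held the first and 8 the second. A match describes letters and not a bound site.

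The promoters of Slc22a28 and Slc22a30 were 93.0% identical over 256 aligned positions, against 50.6% for Slc22a6 and Slc22a8. Their transcripts were alike too: 53.9% of the 50-base stretches of Slc22a28 occurred in another member, mostly Slc22a30, and 34.0% of those of Slc22a30 did, mostly in Slc22a28. The counts of these 2 genes are thus not independent, and how reads were split between them is not given in the sources used here. The same holds for Slc22a27 (29.9% shared, mostly with Slc22a29), Slc22a29 (28.7%, mostly with Slc22a27), Slc22a5 (26.2%, mostly with Slc22a21) and Slc22a21 (22.0%, mostly with Slc22a5). Slc22a6, Slc22a8, Slc22a18 and Slc22a4 shared 0.0 to 0.679% with other members.

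After filtering, 54423 nuclei remained, with 3741 to 18238 nuclei and a median of 1092 to 2029 UMIs (counted RNA molecules) per nucleus in a library. Control 1 and knockout 1 stood apart, with 16726 and 18238 nuclei against 3741 to 5771 in the others, and 2.13% and 0.977% of UMIs from mitochondria against 0.140 to 0.194%. Control 3 and knockout 3 shared 73 cell barcodes, 1.395% of the smaller library and the highest share of any pair; the other pairs shared 0.098 to 0.689%, among them control 1 and knockout 1 with 121 barcodes. In podocyte nuclei Klf4 gave 1, 0 and 0 UMIs in controls 1 to 3, and 4, 0 and 1 UMIs in knockouts 1 to 3, too few to check the labels. All 6 libraries had the pattern of male kidneys: Xist was 0.617 to 1.42 CPM (UMIs of a gene per 1000000 UMIs of the class and library) and the Y-linked Uty 278 to 381 CPM in all nuclei. Kap, an androgen-driven gene of the proximal tubule, was at 8610, 963 and 1120 CPM in proximal tubule nuclei of the controls and at 2510, 760 and 974 CPM in the knockouts. Control 1 was thus far above the other libraries, and the part of Kap's spread in the results below was not tested.

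Clusters were named from fixed markers, and the members took no part in the clustering. Of 29421 proximal tubule nuclei, 8168 were S1-like, 5519 S3-like, and 6605 were in 3 clusters that could not be given a segment. The other 9129 were in 3 clusters that the naming rule gave to S2, but the data go against that name. Their 7 S2 markers summed to 9115 to 12770 CPM in the controls and 11810 to 12170 CPM in the knockouts, against 16930 to 20850 and 17730 to 18810 CPM in S3-like nuclei. They were also below the nuclei without a segment in every library, so these clusters are called set A and no segment is read from them. Set A had 6037, 736 and 359 nuclei in controls 1 to 3 and 1530, 378 and 89 in knockouts 1 to 3. The clusters without a segment were nearly specific to some libraries: of 3468 nuclei in one, 2654 were from knockout 1 and 546 from knockout 2, knockout 3 gave 1041 of 1093 in another, and control 3 gave 1625 of 2044 in the last. Most S3-like nuclei of knockout 3 (496 of 583) were in 1 of the 2 S3-like clusters, which held 171 of 2352 in control 1, 74 of 246 in control 2 and 20 of 166 in control 3. A further 3115 nuclei were injured tubule-like, with Cd44, Havcr1 and Vcam1 among their leading genes, counting 98, 8 and 24 nuclei in controls 1 to 3 against 2091, 538 and 356 in knockouts 1 to 3. Control 2 had too few of them and was left out of that class, which leaves n = 2 controls there. The 6 parietal epithelial markers summed there to 890 and 602 CPM in controls 1 and 3 and 719 to 1135 CPM in the knockouts. In proximal tubule nuclei they summed to 168 to 219 CPM. No cluster was named parietal epithelial, and whether such nuclei are in the injured class was not tested.

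RNA of proximal tubule genes was found in every class. Empty droplets were not used here, so free RNA was not measured, and the CPM are not corrected for it. The 8 proximal tubule markers, summed, stood in endothelial nuclei at 59.8 to 91.6% of their level in proximal tubule nuclei of the same library, and in thick ascending limb nuclei at 45.1 to 65.3%. A member outside the proximal tubule is therefore read against that share.

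Between S1-like and S3-like nuclei, many members differed in the same direction in every library. Levels are compared within a gene only, since CPM is not scaled to gene length. Of the 27 members with at least 200 UMIs in the proximal tubule, 10 were higher in S3-like than in S1-like nuclei in all 6 libraries and 7 were lower in all 6. Over the 11590 genes with as many UMIs the shares were 12.1% and 13.1%. In controls, 14 members had their highest mean in S3-like, 7 in S1-like and 6 in set A nuclei, among these 3. These levels are a description, since the nuclei that define a class also give its level.

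**Figure D1:**
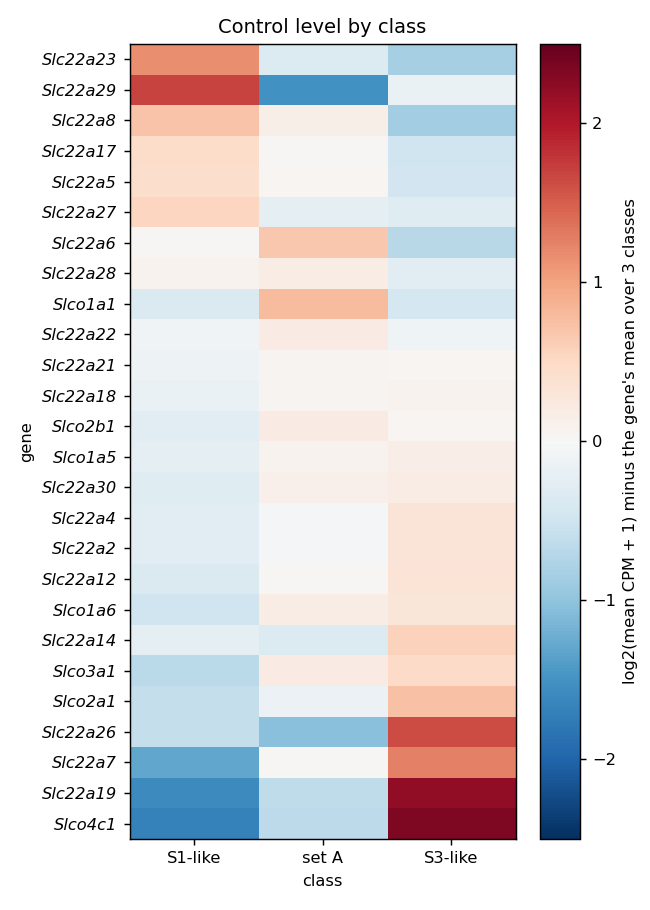
Each row is a member and each column a class of proximal tubule nuclei; the colour gives log2(mean control CPM + 1) minus that gene's mean over the 3 classes. Slco4c1, Slc22a19, Slc22a7 and Slc22a26 are red in S3-like nuclei, and Slc22a23, Slc22a29 and Slc22a8 in S1-like nuclei.

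Slco4c1, an uptake carrier of the kidney for cardiac glycosides and thyroid hormone, had the largest ratio of S3-like to S1-like nuclei in control means. It was at 5.72, 7.54 and 2.20 CPM in S1-like nuclei of the controls and at 135, 105 and 56.0 CPM in S3-like nuclei, a ratio of the means of 19.2. No control overlapped between the segments. Slc22a19, the anion transporter OAT5, was at 11.1 ± 6.69 CPM (SD, n = 3) in S1-like, 22.7 ± 15.3 in set A and 170 ± 71.0 in S3-like control nuclei. Slc22a7, the anion transporter OAT2, was at 26.0 ± 9.81, 66.8 ± 3.05 and 156.3 ± 104 CPM in the same order. The rare Slc22a26 went from 2.58 ± 1.15 to 15.9 ± 7.01 CPM between S1-like and S3-like. Slc22a2, the cation transporter OCT2, and Slc22a4, the carrier of the fungal antioxidant ergothioneine, were also higher in S3-like nuclei of all 6 libraries, by 1.52 and 1.51 times in control means.

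In S1-like nuclei the opposite held for Slc22a23, an SLC22 member without an established substrate, for Slc22a8 and for the carnitine transporter Slc22a5. Slc22a23 was at 736, 645 and 729 CPM in S1-like and 110, 296 and 125 CPM in S3-like control nuclei. The groups of values did not overlap, and the ratio of the means was 3.97. Slc22a8 was at 373 ± 69.8 CPM in S1-like, 250 ± 24.8 in set A and 124 ± 39.6 in S3-like control nuclei, 3.00 times higher in S1-like than in S3-like. Slc22a29 was 3.84 times higher and Slc22a5 1.88 times higher in S1-like than in S3-like.

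Slc22a6, Slc22a22 and Slco1a1 were higher in set A than in S1-like and S3-like nuclei in all 6 libraries. Slc22a6 was at 385 ± 75.8 CPM in S1-like, 604 ± 194 in set A and 234 ± 29.8 in S3-like control nuclei. Slco1a1, an uptake carrier of steroid conjugates, was at 231 ± 61.7, 518 ± 269 and 220 ± 67.1 CPM. Set A has no segment, so these values place no gene along the tubule.

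In injured tubule-like nuclei most members were lower than in the proximal tubule of the same library. In the knockouts, where this class was large, 19 of the 27 members were lower in all 3 libraries and 3 were higher in all 3, with a median ratio of 0.578. The median over the 11590 genes was 1.01, and 27.2% of them were lower in all 3. Slc22a28 was at 305 ± 54.6 CPM in injured against 890 ± 69.4 CPM in proximal tubule nuclei, Slc22a30 at 490 ± 44.7 against 1360 ± 53.8, Slc22a8 at 53.2 ± 26.1 against 158 ± 48.4, and Slc22a6 at 128 ± 66.0 against 341 ± 70.7. The 3 that were higher were Slco3a1 (1036 ± 79.95 against 778 ± 66.5 CPM), the prostaglandin transporter Slco2a1 (71.2 ± 21.2 against 27.3 ± 9.04) and Slc22a21 (29.9 ± 6.81 against 24.4 ± 5.21). The proximal tubule markers, summed, were at 41.1 to 47.5% in the same nuclei. The transporters were thus lower together with the markers that name the tubule. This comparison again is a description of clusters made from the same nuclei. In thick ascending limb nuclei of the knockouts these markers were at 45.1 to 58.0%. Slc22a28, Slc22a30, Slc22a8 and Slc22a6 were there at 431 ± 129, 642 ± 123, 82.9 ± 28.9 and 195 ± 46.5 CPM, above their injured means. Slco3a1, Slco2a1 and Slc22a21 were there at 646, 20.5 and 22.6 CPM, below their injured means. The part of free RNA in the injured values was not tested.

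Between knockout and control, no member passed the test in any class. Counts were summed per library and class and fitted for all genes with edgeR's quasi-likelihood test, at a Benjamini-Hochberg adjusted p of 0.05. Of the 39 members, 30 had enough counts for a fit in at least 1 class. In the proximal tubule as a whole, 29 members were fitted and 0 were called, where 0.0379% of the 13182 genes were called (5 genes). At an unadjusted p under 0.05 there were 6 members, 5 lower and 1 higher in knockout, against 7.19% of all genes. DESeq2 called 2 members, Slc22a4 and Slc22a18, where it called 0.994% of all genes. The libraries of the groups did not overlap for 7 of the 29 members, 5 lower and 2 higher, against 12.8% of all genes. The median log2 change was -0.11 over these members and -0.01 over all genes. With the replicate number as a block, 13 genes and 0 members were called. With 3 libraries a group, tests on simulated counts recovered 99.1% of genes changed 4 times and 47.1% of those changed 2 times. A change of 2 times in a member could thus be missed. The simulation gave every gene the same spread, changed many genes at once and used the depth of the whole proximal tubule. Its shares hold for those settings only, and the shallower classes were not simulated.

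**Figure D2:**
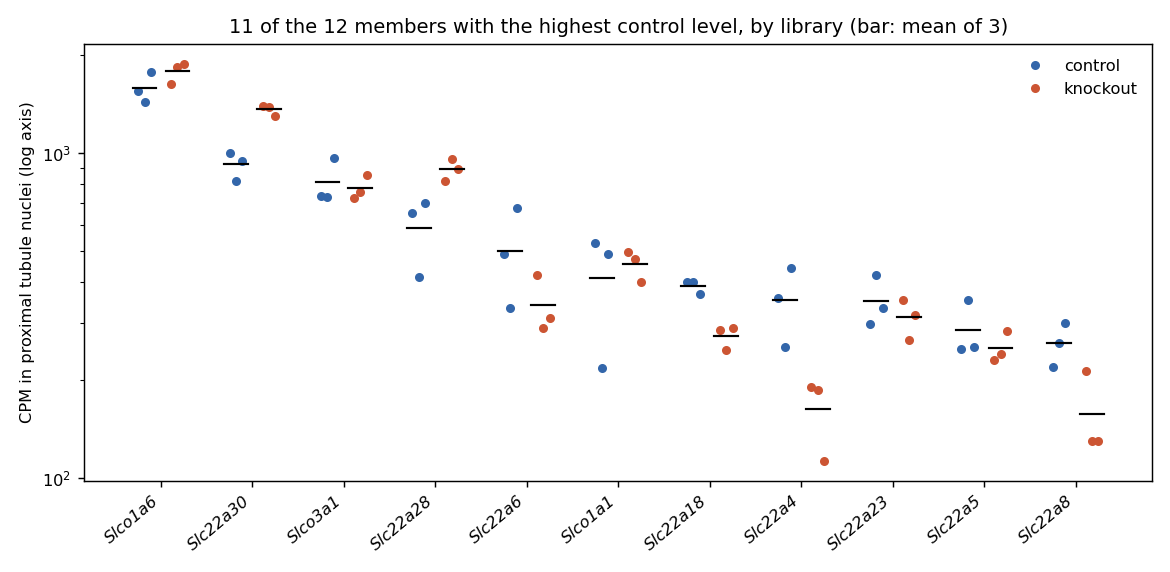
Points are CPM in proximal tubule nuclei of each library on a log axis, blue for control and orange for knockout, with a bar at the mean of 3. The groups do not overlap for Slc22a30, Slc22a28, Slc22a18, Slc22a4 and Slc22a8, and they overlap for the other 6 drawn.

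Among the carnitine and ergothioneine carriers, Slc22a4 stood lower in knockout. It lies at chr11:53983123-54028090 on the minus strand. In proximal tubule nuclei it was at 359, 253 and 443 CPM in the controls and at 191, 186 and 113 CPM in the knockouts. Every knockout was below every control, with a log2 change of -1.13 ± 0.29 (SE) and an edgeR adjusted p of 0.478. DESeq2 gave an adjusted p of 0.0279. Its neighbour Slc22a5 was at 249, 352 and 253 CPM in the controls and 231, 241 and 284 CPM in the knockouts, which overlap, with a log2 change of -0.18 ± 0.17. Slc22a21, between them and partly alike in sequence to Slc22a5, was at 30.0 ± 2.38 CPM in control and 24.4 ± 5.21 CPM in knockout.

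The same lower value of Slc22a4 was seen in nearly every class. Of 12 classes, counting S1-like, set A and S3-like singly, the groups did not overlap in 11, immune nuclei being the exception. The log2 change lay between -1.46 and -0.73 in the 11 classes that could be fitted. In connecting tubule and principal nuclei it was at 196, 213 and 221 CPM in the controls and 95.4, 105 and 83.9 CPM in the knockouts. That gave a log2 change of -1.18 ± 0.17, the smallest adjusted p of any member (0.0541 in edgeR, 0.00181 in DESeq2, 0.0236 with the replicate block). In intercalated nuclei the log2 change was -1.46 ± 0.34, with an adjusted p of 0.411 in edgeR, 0.0114 in DESeq2 and 0.00599 with the block. The block also gave 0.0498 in the distal convoluted tubule and 0.0423 in endothelial nuclei. In the same 2 classes its control level was 65.0% and 70.3% of that in the proximal tubule, where the 8 proximal tubule markers were at 46.9 to 54.0% and 73.2 to 82.2%. The endothelial level lay below the range of the markers and the distal one above it. In connecting tubule and principal nuclei the control level was 59.8%, with the markers at 50.7 to 59.4%. In intercalated nuclei it was 62.9%, with the markers at 59.6 to 67.4%. The classes share libraries and proximal tubule RNA, so their differences are not independent of each other.

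**Figure D3:**
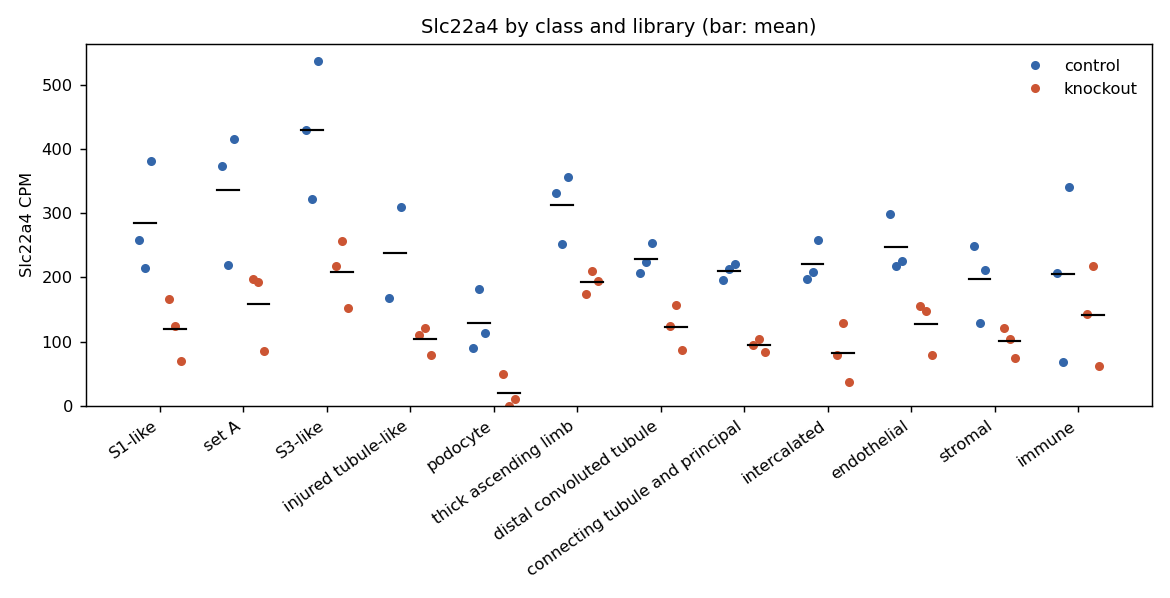
Points are Slc22a4 CPM of each library by class, blue for control and orange for knockout, with a bar at the mean; control 2 is not drawn for injured tubule-like nuclei. Knockout points lie below control points in every class drawn except immune nuclei.

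Thick ascending limb nuclei had Slc22a4 at 89.1% of its proximal tubule level in controls, above the 50.1 to 61.5% of the 8 markers. There it was at 331, 252 and 356 CPM in the controls and 175, 210 and 194 CPM in the knockouts, which do not overlap. The log2 change was -0.73 ± 0.19, with an edgeR adjusted p of 0.531. Slc22a4 in this class thus lay above the share that the markers give.

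Slc22a18, a transporter gene in an imprinted region, lies at chr7:143473736-143499334 on the plus strand. It was lower on average in the knockouts in most classes of the proximal tubule. In set A nuclei it was at 408, 395 and 409 CPM in the controls and 289, 268 and 271 CPM in the knockouts. S3-like nuclei gave 417, 404 and 405 CPM against 291, 274 and 287 CPM. In the whole proximal tubule it was at 399, 399 and 369 CPM against 286, 247 and 290 CPM. The groups did not overlap in any of the 3, and the knockout means were 0.683, 0.695 and 0.705 of the control means. The log2 changes were -0.59 ± 0.18, -0.53 ± 0.16 and -0.52 ± 0.14, with edgeR adjusted p of 0.434, 0.522 and 0.50. In the whole proximal tubule DESeq2 gave 0.0462. S1-like nuclei gave 363, 409 and 256 CPM against 273, 223 and 299 CPM, which overlap, with an edgeR adjusted p of 0.867.

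The 2 main anion uptake carriers of the basolateral membrane, OAT1 and OAT3, were both lower on average in knockout. Slc22a8 in the proximal tubule was at 220, 260 and 299 CPM in the controls and 214, 130 and 130 CPM in the knockouts. The groups did not overlap, but knockout 1 lay just under the lowest control. The log2 change was -0.73 ± 0.23, with an edgeR adjusted p of 0.569. Slc22a6 was at 488, 333 and 678 CPM in the controls and 421, 289 and 311 CPM in the knockouts, which overlap. Its log2 change was -0.58 ± 0.29, with an edgeR adjusted p of 0.749. In S3-like nuclei, where OAT1 is low, it was at 266, 208 and 229 CPM against 195, 124 and 126 CPM with no overlap and an adjusted p of 0.593.

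Both were also lower on average in injured tubule-like nuclei of the knockouts than in those of the controls. Slc22a6 was at 280 and 447 CPM in controls 1 and 3, and at 204, 93.7 and 85.8 CPM in the knockouts. Slc22a8 was at 117 and 275 CPM against 82.9, 42.6 and 34.0 CPM. Knockouts were below controls for both, with log2 changes of -1.34 ± 0.41 and -1.55 ± 0.48 and an edgeR adjusted p of 0.253 each. With the replicate block the edgeR adjusted p was 0.0111 for Slc22a6, 0.0309 for Slc22a8 and 0.0479 for Slc22a4. Control 2 was left out of this class, so knockout 2 has no partner in the block. The blocked fit there compares only the libraries numbered 1 and 3, with little left to measure their spread. Without knockout 1, in the fit without the block, the edgeR adjusted p was 0.00511 and 0.0164 for Slc22a6 and Slc22a8. The class differed between the groups in its markers as well: the 12 injury markers summed to 331 and 241 CPM in controls 1 and 3, and to 1520 to 1671 CPM in the knockouts. The 8 proximal tubule markers summed to 10200 and 11480 CPM against 6135 to 8362 CPM, and their part in the transporter values was not tested.

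In the injured class as a whole, 22 members were fitted and 0 called, against 0.0838% of genes. At an unadjusted p under 0.05 there were 7 members, 6 lower and 1 higher, where 12.3% of all genes were. The 1 higher was Slc22a15, at 10.2 and 17.2 CPM in controls 1 and 3. It was at 38.2, 28.0 and 45.3 CPM in the knockouts, with an edgeR adjusted p of 0.359. The class held 196535 and 58177 UMIs in controls 1 and 3, so its control values rest on few UMIs and no direction is read. DESeq2 called 0 members and 0.814% of genes, and the groups did not overlap for 9 members and 35.3% of genes. Among the lower members, beside Slc22a4, Slc22a6 and Slc22a8, were Slc22a2 at 177 ± 41.5 CPM (n = 2) in control and 95.6 ± 21.2 CPM in knockout, and Slc22a18 at 248 ± 62.7 against 133 ± 15.5 CPM. With the block, limited as said above to the libraries numbered 1 and 3, 183 genes and 3 members were called. Without knockout 1 these were 205 genes and 2 members. Without control 1, control 3 or knockout 3 no gene was called, and 1 gene without knockout 2.

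Of the rodent anion transporters on chromosome 19, Slc22a28 and Slc22a30 stood higher in knockout, and the difference was clearest in S3-like nuclei. Slc22a30 lies at chr19:8335371-8405111 and Slc22a28 at chr19:8062209-8131982, both on the minus strand. In S3-like nuclei Slc22a30 was at 1086, 818 and 1009 CPM in the controls and 1708, 1714 and 1620 CPM in the knockouts. Slc22a28 was at 543, 340 and 410 CPM against 778, 813 and 857 CPM. All knockouts were above all controls for both. The log2 changes were 0.78 ± 0.19 and 0.90 ± 0.22, with edgeR adjusted p of 0.324 and 0.318 and DESeq2 adjusted p of 0.0345 and 0.0308. Given the stretches the 2 genes share, these are not independent observations.

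In the whole proximal tubule Slc22a30 was at 1000, 821 and 946 CPM in the controls and at 1396, 1386 and 1298 CPM in the knockouts. Slc22a28 was at 651, 414 and 702 CPM against 819, 958 and 892 CPM. Neither pair of groups overlapped, and the edgeR adjusted p was 0.581 and 0.695. In set A nuclei the groups of Slc22a30 did overlap (1134, 826 and 856 CPM against 1486, 1177 and 828 CPM). In injured nuclei Slc22a28 was at 397 ± 94.3 CPM in control (n = 2) and 305 ± 54.6 CPM in knockout.

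Their neighbour Slc22a27 had the opposite order. It was at 35.1, 35.4 and 61.95 CPM in the controls and 25.5, 25.7 and 15.8 CPM in the knockouts of the proximal tubule, without overlap, with a log2 change of -0.997 ± 0.31 and an edgeR adjusted p of 0.55. In stromal nuclei it was at 36.3, 37.0 and 45.9 CPM against 15.1, 13.7 and 9.37 CPM, without overlap and with an edgeR adjusted p of 0.25. Slc22a19 differed widely between libraries. In S3-like nuclei it was at 250, 113 and 147 CPM in the controls and 273, 208 and 700 CPM in the knockouts, where knockout 3 alone stood far above the rest and the edgeR adjusted p was 0.665. Slc22a7 in S3-like nuclei was at 120, 75.5 and 274 CPM against 75.8, 117 and 317 CPM, with number 3 the highest of both groups.

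In S1-like and set A nuclei Slc22a7 was lower in every knockout library than in every control. In set A nuclei it was at 63.4, 67.8 and 69.3 CPM in the controls and 15.8, 37.3 and 37.2 CPM in the knockouts. S1-like nuclei gave 37.1, 22.6 and 18.4 CPM against 9.61, 11.4 and 14.4 CPM. The groups did not overlap in either, with log2 changes of -1.39 ± 0.34 and -1.36 ± 0.38 and edgeR adjusted p of 0.288 and 0.533. In the nuclei without a segment it overlapped, at 64.6, 43.9 and 43.6 CPM against 33.7, 37.1 and 58.2 CPM, and so it did in those nuclei and set A together (edgeR adjusted p 0.758). The 7 cycling markers in S1-like nuclei summed to 4.69 to 7.54 CPM in the controls and 21.3 to 92.0 CPM in the knockouts. In set A the 10 endothelial markers summed to 110 to 206 CPM in the controls and 69.0 to 100.3 CPM in the knockouts. One S1-like cluster held 128 of 3069, 82 of 259 and 90 of 646 S1-like nuclei of controls 1 to 3, and 1085 of 3332, 317 of 631 and 66 of 231 of knockouts 1 to 3. The part of these differences in the Slc22a7 values was not tested. The difference of the knockout effect between S3-like and S1-like was tested for 26 members, and 0 passed, against 0.00968% of genes. At an unadjusted p under 0.05 there were 5 members, Slco4c1, Slc22a7, Slc22a19, Slc22a27 and Slc22a30, where 3.49% of genes were. The smallest edgeR adjusted p among them was 0.971, for Slc22a19, whose knockout effect was 1.30 ± 0.33 higher in S3-like on the log2 scale. DESeq2 was not run for this difference.

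**Figure D4:**
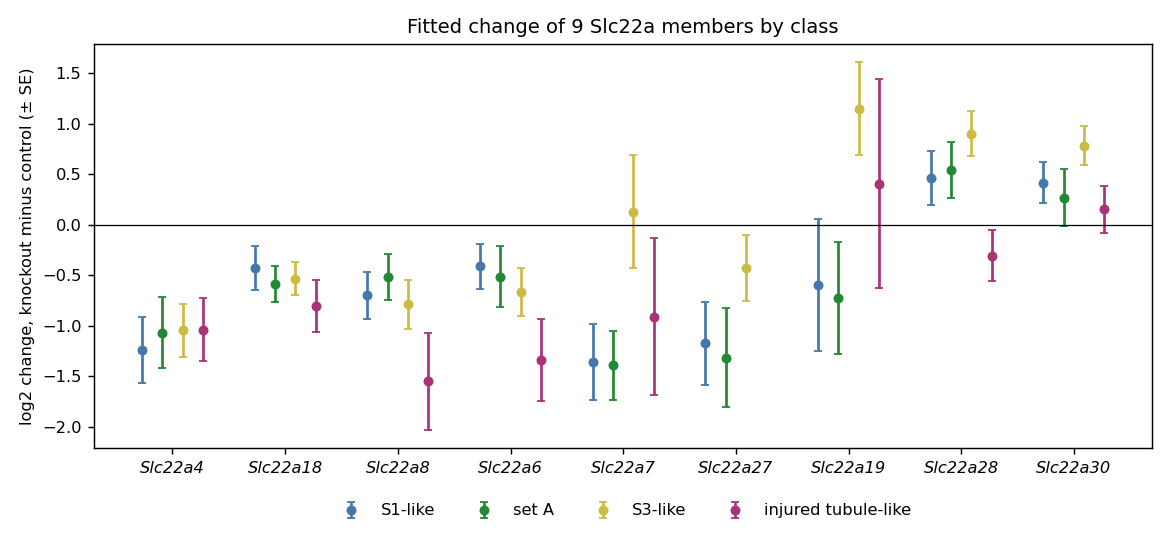
Points are fitted log2 changes, knockout minus control, with SE bars, for 9 Slc22a members in S1-like, set A, S3-like and injured tubule-like nuclei. Slc22a4, Slc22a18, Slc22a8 and Slc22a6 lie below 0 in all 4 classes, and Slc22a7 and Slc22a19 differ in sign between S3-like and both S1-like and set A.

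By class the counts were as follows. Among S1-like nuclei 23 members were fitted and 0 called, where 0.0% of genes were called. Unadjusted, 4 members passed 0.05, all lower, against 5.92% of genes, and the groups did not overlap for 5 members and for 12% of genes. DESeq2 called 1 member, Slc22a4, and 0.386% of genes. Slc22a4 was at 258, 215 and 382 CPM in the S1-like nuclei of the controls and 166, 124 and 69.0 CPM in those of the knockouts, with an edgeR adjusted p of 0.47. Set A nuclei gave 21 members fitted and 0 called, against 0.0389% of genes. Unadjusted, 5 members passed 0.05, all lower, against 8.11% of genes. DESeq2 called 0 members and 0.558% of genes, and the groups did not overlap for 5 members and 13.9% of genes. In the S3-like class 23 members were fitted and 0 called, against 0.0638% of genes. Unadjusted, 7 members passed, 4 lower and 3 higher, where 7.02% of genes did. DESeq2 called Slc22a4, Slc22a28 and Slc22a30 and 0.638% of genes, and the groups did not overlap for 7 members and 12.8% of genes. Slc22a4 was at 430, 323 and 537 CPM in S3-like nuclei of the controls and 217, 256 and 152.1 CPM in those of the knockouts, with an edgeR adjusted p of 0.338 and a DESeq2 adjusted p of 0.0317. With the block 2, 49 and 57 genes were called in S1-like, set A and S3-like nuclei, where the fit without it called 0, 3 and 6, and no member was among them. The 8 S3 markers summed in S3-like nuclei to 6074 to 9585 CPM in the controls and 8836 to 11550 CPM in the knockouts, and the 12 injury markers to 91.3 to 223 CPM against 119 to 278 CPM. The 7 cycling markers summed to 4.83 to 6.47 CPM in the controls and 18.1 to 20.8 CPM in the knockouts of these nuclei, without overlap. Their part in the S3-like values was not tested.

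In the whole proximal tubule the remaining members with high levels overlapped between the groups. Slco1a6, the Slco member with the most UMIs, was at 1552, 1436 and 1766 CPM in the controls and 1623, 1835 and 1877 CPM in the knockouts of the proximal tubule, which overlap. Its log2 change was 0.15 ± 0.19. Slco3a1, a widely expressed carrier, was at 738, 730 and 964 CPM against 726, 757 and 853 CPM. Slco1a1 was at 528, 217 and 490 CPM against 497, 472 and 400 CPM, with control 2 far below the rest. Both pairs of groups overlap, with log2 changes of -0.07 ± 0.19 and 0.11 ± 0.34. Slc22a23 was at 297, 422 and 334 CPM against 354, 265 and 317 CPM. These also overlap. Slc22a2 was at 162 ± 47.2 CPM in control and 182 ± 28.8 CPM in knockout, and the urate transporter Slc22a12 at 106 ± 20.4 against 144 ± 81.4 CPM. Slc22a22, a prostaglandin carrier, was at 105 ± 30.6 against 99.2 ± 32.2 CPM. All 3 overlapped between the groups. Single classes differed from this for 3 of them. Slco1a6 in S3-like nuclei was at 1746, 1668 and 1785 CPM in the controls and 2118, 1923 and 1894 CPM in the knockouts, without overlap and with an edgeR adjusted p of 0.866. In injured nuclei Slco1a1 was at 336 and 327 CPM in controls 1 and 3 and at 283, 287 and 228 CPM in the knockouts. Slc22a2 was there at 148 and 206 CPM against 119, 90.1 and 77.7 CPM. Neither overlapped, with edgeR adjusted p of 0.644 and 0.358. The scarce Slco1a5 was at 4.88, 9.32 and 13.4 CPM in the controls and 4.01, 2.68 and 3.90 CPM in the knockouts, without overlap and with an edgeR adjusted p of 0.569.

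Outside the proximal tubule several members stood above the share that the proximal tubule markers show, and not all of them are named here. Slco4a1, a thyroid hormone carrier, was at 30.4 ± 12.9 CPM in thick ascending limb nuclei of the controls and 1.41 CPM in the proximal tubule. Slco2b1 was at 105 ± 34.9 CPM in stromal nuclei against 5.77 CPM in the proximal tubule. Slco2a1 was at 151.7 ± 79.8 CPM in podocytes, 129 ± 95.4 CPM in endothelial and 96.8 ± 15.6 CPM in stromal nuclei, against 24.0 CPM. Each was above the proximal tubule in all 6 libraries. Slc22a15 was at 21.0 ± 15.9 CPM in endothelial nuclei against 2.26 CPM, and Slc22a17, a receptor for the iron carrier lipocalin, at 22.5 ± 4.24 CPM in connecting tubule and principal nuclei against 10.4 CPM. Slc22a23 in the distal convoluted tubule stood at 125% of its proximal tubule level. In thick ascending limb nuclei Slc22a21, Slc22a14, Slc22a5 and Slco3a1 stood at 108%, 81.9%, 81.1% and 80.5%, with the markers at 50.1 to 61.5%. The same 4 stood at 102%, 70.4%, 68.6% and 83.2% in the distal convoluted tubule, with the markers at 46.9 to 54.0%.

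**Figure D5:**
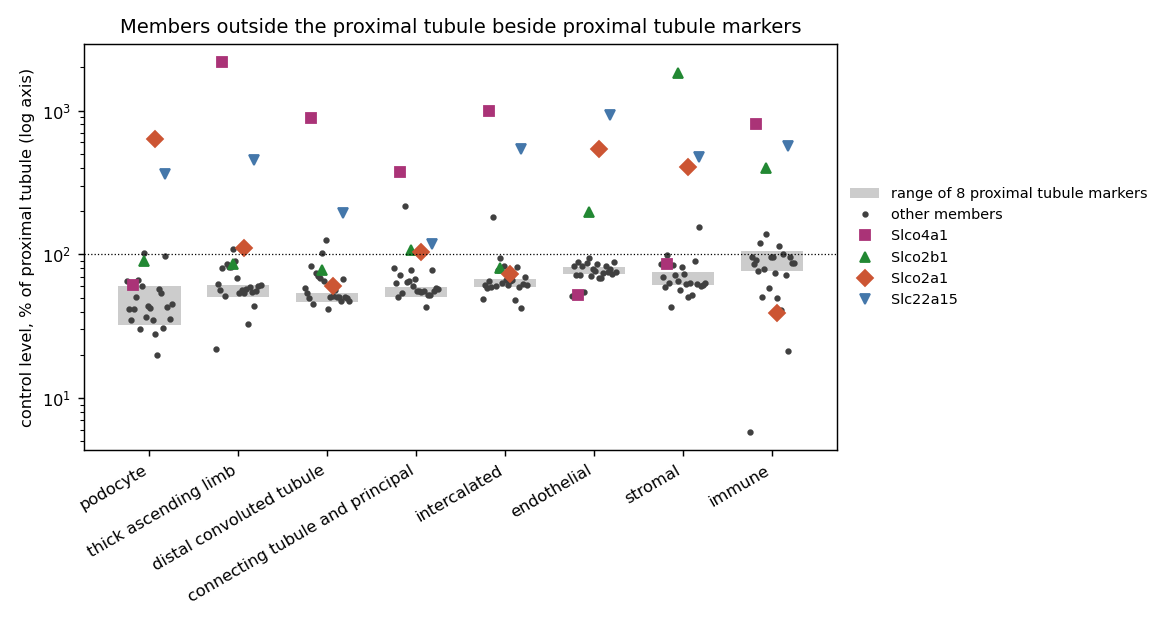
The mean control level of each of 26 members with at least 800 UMIs is drawn as a percent of its proximal tubule level on a log axis, by class; grey boxes span the 8 proximal tubule markers. Most members fall in or near the boxes, and Slco4a1, Slco2b1, Slco2a1 and Slc22a15 lie far above them in some classes.

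In the 8 other classes, 158 fits of members gave 0 calls, where 0.0347% of all fits were called. At an unadjusted p under 0.05 there were 29, of which 26 were lower in knockout, against 6.39% of all fits. DESeq2 called 2, both Slc22a4, and 0.372% of all fits. Of the 26 lower, Slc22a4 made up 6, Slc22a18 and Slc22a8 5 each, Slc22a27 4 and Slc22a6 3, with Slc22a23, Slc22a21 and Slco2b1 once each. The 3 higher were Slc22a28 in 2 classes and Slc22a30 in 1. In intercalated nuclei Slc22a8 was at 151.4, 231 and 155.7 CPM in the controls and 91.4, 83.4 and 87.2 CPM in the knockouts, without overlap, with an edgeR adjusted p of 0.353. With the block 7 fits were called: Slc22a4 in 4 classes, and Slc22a8, Slc22a18 and Slc22a27 in intercalated nuclei. The share of all fits called with the block is not given here, so the 7 are not read as a result about the members. In thick ascending limb nuclei Slc22a27 was at 16.9, 30.9 and 30.0 CPM in the controls and 7.46, 12.6 and 7.42 CPM in the knockouts, and in endothelial nuclei at 29.4, 32.4 and 47.4 CPM against 18.7, 21.5 and 10.3 CPM. Neither pair of groups overlapped, with edgeR adjusted p of 0.517 and 0.646. The control level of Slc22a27 in these 2 classes was 58.8% and 82.5% of that in the proximal tubule. The 8 markers were there at 50.1 to 61.5% and 73.2 to 82.2%.

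In the distal convoluted tubule Slc22a28 was at 251, 276 and 307 CPM in the controls and 382, 478 and 398 CPM in the knockouts. The groups did not overlap, as in the S3-like class, with an edgeR adjusted p of 0.838. Its control level there was 47.3% of that in the proximal tubule, within the 46.9 to 54.0% of the 8 proximal tubule markers. The part of free RNA in this difference was not tested. Slc22a18 in connecting tubule and principal nuclei was at 220, 270 and 133 CPM against 143, 127 and 149 CPM, where control 3 lay among the knockouts and the edgeR adjusted p was 0.699. In immune nuclei Slc22a8 was at 230, 271 and 171 CPM against 168, 68.6 and 89.6 CPM, and Slc22a6 at 446, 271 and 577 CPM against 331, 240 and 278 CPM. The first pair of groups did not overlap and the second did, with an edgeR adjusted p of 0.738 for both. Control levels were 53.4% of the proximal tubule for Slc22a18 in connecting tubule and principal nuclei. They were 86.3% for Slc22a8 and for Slc22a6 in immune nuclei. Each lay within the range of the 8 markers, 50.7 to 59.4% and 76.6 to 105%.

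Podocytes, the cells that lose Klf4, had Slc22a23 at 129, 182 and 145 CPM in the controls and 92.1, 65.0 and 30.1 CPM in the knockouts. Slc22a5 was at 116, 295 and 104 CPM against 77.2, 65.0 and 90.3 CPM. Neither overlapped, with edgeR adjusted p of 0.447 and 0.464. Without knockout 1, 8 members were called lower in podocytes, among them Slco1a6, Slc22a30, Slc22a6 and Slc22a4. The share of all genes called in that fit is not given here, so the 8 are not read as a result about the members. The 8 proximal tubule markers, summed, stood at 36.5 to 41.6% of their proximal tubule level in podocytes of the controls, at 37.9% in knockout 1, and at 10.5% and 12.1% in knockouts 2 and 3. The proximal tubule markers thus moved with these calls. Their part in the calls, and in the lower Slc22a23 and Slc22a5 values of podocytes, was not tested. Slco2b1 in stromal nuclei was at 73.8, 98.6 and 143 CPM in the controls and 64.2, 50.1 and 65.6 CPM in the knockouts, without overlap and with an edgeR adjusted p of 0.549.

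The 9 members without a fit in any class had few or no UMIs. Slc22a13 had 0 UMIs. Its locus lies within that of Slc22a14 on the same strand. How reads were counted there is not given in the sources used here, so the 0 is not read as absence. The others had 32 UMIs (Slc22a16, a carnitine carrier of the testis) to 186 UMIs (Slco1a4) in all nuclei. The carriers Slco1b2 of the liver, with 88 UMIs, and Slco1c1 of brain vessels, with 55 UMIs, were among them, as were Slc22a3, Slco5a1, Slco6c1 and Slc22a20. Slc22a14, whose locus overlaps Slc22a13 on the same strand, Slco6d1 and Slc22a29 were fitted and overlapped between the groups in the proximal tubule.

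The 32 other genes of the pathway, chosen as efflux pumps, other carriers, scaffold proteins and nuclear factors, gave 0 calls in every class described, with 30, 24, 21, 25 and 23 of them fitted in the proximal tubule, S1-like, set A, S3-like and injured nuclei. DESeq2 called 0 too. Those with an unadjusted edgeR p under 0.05 were 3, 3, 3, 5 and 3 in the same order. Over all genes the shares were 7.19%, 5.92%, 8.11%, 7.02% and 12.3%. Abcc6, an efflux pump of the basolateral membrane, was at 34.2, 45.7 and 56.7 CPM in the controls and 18.95, 21.1 and 15.9 CPM in the knockouts of set A nuclei. The groups did not overlap, with a log2 change of -1.23 ± 0.29 and an edgeR adjusted p of 0.267. In the whole proximal tubule Abcc6 was at 33.1, 46.6 and 47.3 CPM against 26.7, 26.3 and 21.3 CPM, and in S3-like nuclei at 27.6, 45.6 and 47.4 CPM against 22.8, 21.65 and 21.62 CPM. Neither overlapped, with edgeR adjusted p of 0.478 and 0.589. Slc10a2, the bile acid carrier of the brush border, was at 71.2, 40.9 and 41.0 CPM against 86.3, 75.8 and 168 CPM in S3-like nuclei, without overlap, with an edgeR adjusted p of 0.593. In S1-like nuclei it was at 19.5, 11.3 and 12.5 CPM against 24.2, 29.75 and 25.9 CPM, also without overlap, with an edgeR adjusted p of 0.835. Abcc2, the efflux pump of the brush border, was at 819 and 1134 CPM in controls 1 and 3 and at 621, 528 and 413 CPM in the knockouts of injured nuclei, with an edgeR adjusted p of 0.253. Abcb1b, a drug efflux pump, had no UMI in injured nuclei of the controls. It was at 28.1, 13.4 and 25.9 CPM in those of the knockouts, with an edgeR adjusted p of 0.26. It passed the low-count filter through the knockouts only, where it had 113, 11 and 16 UMIs, so no difference is read. Nr1h4, the bile acid receptor FXR, was at 708, 665 and 675 CPM against 731, 1300 and 1476 CPM in set A nuclei, where knockout 1 stood near the controls and the edgeR adjusted p was 0.544. In the proximal tubule as a whole Nr1i3 was at 3.87, 4.66 and 3.28 CPM against 2.28, 1.61 and 1.38 CPM, and in S1-like nuclei the scaffold gene Slc9a3r1 at 99.7, 67.9 and 59.5 CPM against 57.7, 44.6 and 46.0 CPM. Neither pair of groups overlapped, with edgeR adjusted p of 0.63 and 0.787.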

How the data were processed

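Single nuclei of kidney cortex were sequenced with the 10x system in 3 control and 3 knockout libraries. The authors deposited matrices of unnormalized UMI counts. They come from Cell Ranger 3.1.0, per the file headers, and mm10, per the submitters' processing notes, which name Seurat without a role. Nuclei needed 300 or more genes and no more than 5% mitochondrial UMIs. Scrublet called 0 to 6 doublets a library, so the highest scores were removed at 0.8% per 1000 barcodes. Leiden clustering (scanpy 1.11.5; 3000 genes, 30 components, resolution 1.5) left out the members, mitochondrial and sex-linked genes, and clusters were named from markers, so differences from the study may come from rebuilt names. UMIs were summed per library and class with at least 10 nuclei and compared with edgeR 4.0.16 (quasi-likelihood, TMM, low-count filter by group, no covariate, Benjamini-Hochberg over all genes of the class). DESeq2 1.42.0 was the other tool. The fit was tested on simulated counts of 12966 genes in the proximal tubule.

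CPM is a gene's UMIs per 1000000 UMIs of the class and library, with the SD between the 3 libraries of a group unless stated, and was not corrected for free RNA. The p-values measure the spread between these samples. Same-numbered libraries deviated together in the proximal tubule (correlations of 0.618, 0.308 and 0.295 between control and knockout 1, 2 and 3), though control 3 and knockout 2 gave 0.404. Numbers come from the sample titles, which name no litter or day, and blocked values are printed where they change a call. Named are the 12 members with the highest control CPM in the proximal tubule, any called, and the 2 with the smallest p in each class; 1 of the 12 is not reported here. Cycling, mixed and unnamed clusters entered no comparison described here. The members, gene lists and markers were chosen with earlier results of these data known, and naming thresholds were set after clusters were seen.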

Additional observations from a re-analysis of the deposited data

How the results depend on the processing

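No member was called under RLE scaling, and none in the whole proximal tubule, S1-like, set A or S3-like nuclei under any setting except DESeq2, which called 2, 1, 0 and 3. In injured nuclei members called were 2 without the low-count filter, 3 with the replicate block and 0 to 2 with 1 knockout library left out. The block there compares only the libraries numbered 1 and 3, since control 2 was left out. In the other classes they were 2 with DESeq2, 12 without the filter, 7 with the block, 7 without both libraries numbered 1, 1 with doublets kept and 0 to 8 with 1 library left out. Of these settings only DESeq2 has its share over all fits given above. The other counts are therefore not read as results about the members.

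Counts of genes called, in the order proximal tubule, S1-like, set A, S3-like and injured, were 5, 0, 3, 6 and 7. DESeq2 gave 131, 36, 43, 60 and 68, no filter 15, 27, 11, 55 and 294, and the replicate block 13, 2, 49, 57 and 183. Leaving out 1 library gave 0 to 4, 0 to 2, 0 to 2, 0 to 14 and 0 to 205. Without both libraries numbered 1 the proximal tubule gave 23, S1-like 17 and S3-like 20. With doublets kept S1-like gave 1 and set A 5. Taking all proximal tubule nuclei neither S1-like nor S3-like in place of set A, chosen after seeing the data, gave 4 genes and 0 members. The cause of these moves was not tested.

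Of 28 fitted member changes with an unadjusted p under 0.05 that are reported here, 332 of 345 values under alternatives kept direction and side of the threshold, 13 passed it and 0 reversed. Where leaving out 1 library left 1 control in the injured class, the lone library is assumed to vary like the knockouts. Of the 89 other member changes, 52 turned sign under at least 1 of 13 alternatives, so no direction is read from them. The block changed no other member call in the classes described. Depth limits injured nuclei of the controls (7024 UMIs in control 2, which was left out) and rare members most.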
